A study of Homo sapiens with 4 samples.

Results

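Glypicans and syndecans are the 2 main families of heparan sulfate proteoglycans at the cell surface, and their 10 human genes, GPC1 to GPC6 and SDC1 to SDC4, were all found by symbol among the 17894 genes of each library. Of the 10, 9 averaged 1 FPKM or more over the 4 libraries, and GPC5 did not. FPKM count the fragments of a gene per unit of transcript length and per library size, so that levels of different genes can be set side by side. The series measured RNA in H1 cells, a human embryonic stem cell line, after 2 days of hematopoietic differentiation on mAGM-S3, a mouse stromal cell line. Human cells were sorted with the TRA-1-85 antibody before RNA was taken. There was 1 library of wild type control cells and 1 of wild type cells that received 20 ng/mL of R-spondin2 during the first day. The other 2 libraries came from LGR4-/- cells, 1 from each of 2 clones, labelled LGR4-/--1 and LGR4-/--2, which were not given R-spondin2. A clone is a separate line, so the 2 clones are not repeat cultures of one line, and no group had more than 1 library of the same cells.

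Both families carry chains of heparan sulfate, a long sulfated sugar that binds growth factors such as FGF, WNT and BMP proteins and presents them to their receptors. Glypicans are globular proteins held in the membrane by a lipid (GPI) anchor, and syndecans span the membrane and end in a short tail inside the cell. R-spondins bind LGR4 and its relatives, and they also bind heparan sulfate through a basic domain; LGR4 was the gene targeted in the clones. In human pluripotent stem cells, glypicans are part of the normal cell surface, and GPC4 is a well-known member there.

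The targeted gene was checked first. LGR4 was at 21.8 FPKM in control, 24.3 FPKM with R-spondin2, 7.40 FPKM in clone 1 and 13.9 FPKM in the second clone. Its RNA was lower in both clones and was still present, at 34.0% and 64.1% of the control level, and FPKM of a whole gene do not show whether a transcript can be translated. The number of reads was estimated from low values at 8850000 to 9040000 per library. From it the reads implied for each member were derived, and with them 95% exact (Clopper-Pearson) intervals for the ratio of 2 libraries, which cover counting error only and not the spread between cultures. Every change below is a difference in log2(FPKM + 1), and every interval is that of the log2 ratio of implied reads, which is not pulled toward 0 by the added 1 FPKM. RNA was taken from a mixed population, so that fewer cells with a transcript and less of it per cell cannot be told apart in any of the values below.

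GPC4 was the most abundant glypican in each of the 4 libraries, and the members differed in how far they moved. GPC3, a glypican whose loss causes an overgrowth syndrome in humans, was lower with R-spondin2 and higher in both LGR4-/- clones. GPC4 followed the same order of libraries over a narrower range, and GPC6 went the other way. GPC1 stayed within a range of 0.14 on the log2 scale and the 4 syndecans within 0.35.

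**Figure D1:**
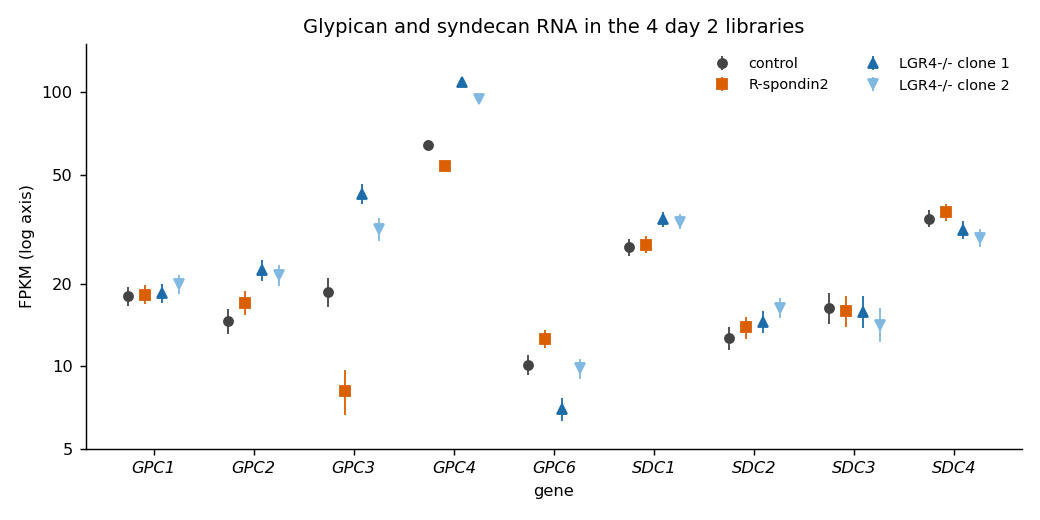
FPKM (log axis) of the 9 members that averaged 1 FPKM or more, 1 point per library, with bars for the 95% exact Poisson interval of the implied reads (counting error only). GPC3 spans 8.11 to 42.5 FPKM, while GPC1 stays between 18.0 and 19.9 FPKM.

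GPC3 (NCBI gene 2719) was at 18.7 FPKM in control, 8.11 FPKM with R-spondin2, 42.5 FPKM in clone 1 and 31.6 FPKM in clone 2. The R-spondin2 library was the lowest and both clones were above the control library. With R-spondin2 the level fell to 43.4% of control, a change of -1.11 in log2(FPKM + 1). On implied reads, at 113 against 267 for the shortest of its 4 listed transcripts, the log2 ratio came to -1.21 (interval -1.54 to -0.89). GPC3 was 1 of 22 genes that fell at least 2-fold among the 12697 genes compared, which is 0.173% of them, and 12 genes fell further. It was the one member called in that direction, and no member was among the 6 genes (0.0473%) that rose at least 2-fold. With 1 library on each side, this difference has no replicate check.

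In the clones, GPC3 rose to 2.28 times the control level in clone 1 and stood at 1.69 times that level in clone 2. The changes in log2(FPKM + 1) were 1.15 and 0.73, with a mean of 0.94 ± 0.29 (SD, n = 2 clones). The intervals on implied reads were 0.98 to 1.40 for clone 1 and 0.54 to 0.98 for clone 2. A 2-fold rise in both clones was required to call a gene for LGR4-/- against control. This was met by 30 genes (0.236%) and a 2-fold fall in both by 137 genes (1.08%), and by 0 of the 9 members in either direction, since GPC3 passed in clone 1 only. In clone 1, taken by itself, 160 genes (1.26%) rose 2-fold and 287 (2.26%) fell, and in clone 2 42 genes (0.331%) rose and 149 (1.17%) fell, with GPC3 in clone 1 the 1 member among them. limma, with the spread taken from the 2 clones, gave GPC3 an SE of 0.19 and an adjusted p of 0.102. By that test no gene of the 12697 passed an adjusted p of 0.05, while 2332 genes had an unadjusted p under 0.05.

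The 2 wild type libraries and the 2 clones left GPC3 with the widest range of all members, 2.26 in log2(FPKM + 1), a range exceeded by 67 of the 12697 genes. Set directly against the R-spondin2 library, GPC3 was at 5.24 times its level there in clone 1 and at 3.90 times in clone 2. The clone 1 difference is the range just given. The clones also differed from each other, with clone 2 at 74.4% of clone 1 and an interval of -0.61 to -0.25 for the log2 ratio. Over all genes, 22 (0.173%) were 2-fold higher in clone 2 than in clone 1 and 10 (0.0788%) were 2-fold lower, and 0 of the 9 members were among them. Both comparisons with control share the single control library. A high or low value there would move the R-spondin2 and LGR4-/- changes in the same direction. The direct comparison with R-spondin2 does not use that library, but in it treatment and genotype differ together.

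**Figure D2:**
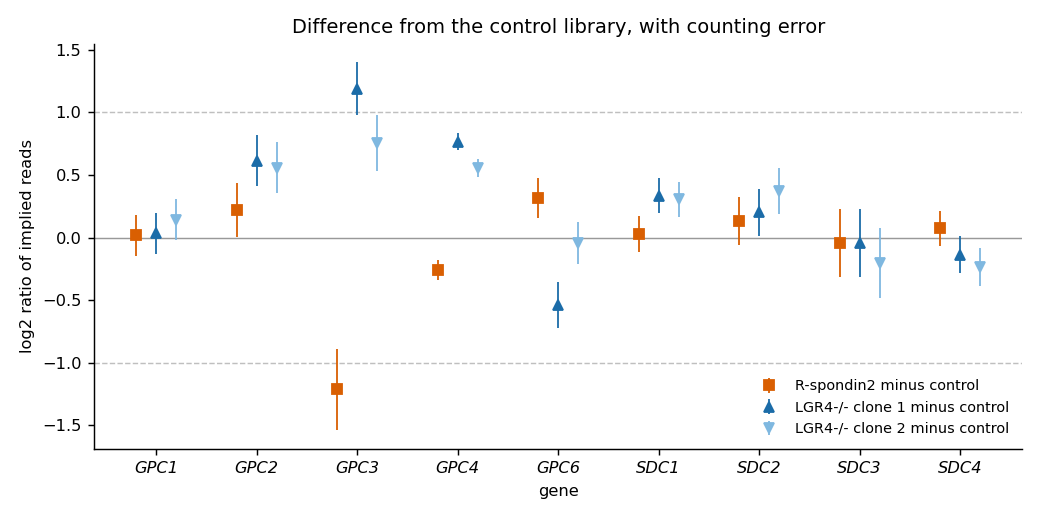
Log2 ratio of implied reads against the control library for 9 members, with bars for the 95% Clopper-Pearson interval (counting error only) and dashed lines at a 2-fold difference. GPC3 lies at -1.21 with R-spondin2 and at 1.19 and 0.76 in the 2 clones, and GPC1 and SDC3 have intervals that hold 0 in each of the 3 comparisons.

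GPC4 (NCBI gene 2239), the neighbor of GPC3 on the X chromosome, was at 64.3 FPKM in control, 53.8 FPKM with R-spondin2, 109 FPKM in clone 1 and 94.5 FPKM in clone 2. The order of the 4 libraries was that of GPC3. Its change with R-spondin2 was -0.25 (interval on implied reads -0.34 to -0.18), short of 2-fold. In the clones its changes were 0.76 and 0.55, with a mean of 0.65 ± 0.15 (SD, n = 2), an SE of 0.11 and an adjusted p of 0.0899 by limma. GPC4 stood above 93.8% of all genes in the control library and above 96.6% in clone 1. The ratio of GPC3 to GPC4 was 0.290 in control, 0.151 with R-spondin2, 0.389 in clone 1 and 0.334 in clone 2, so that GPC3 moved further than GPC4.

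In the GENCODE release 29 annotation of GRCh38, GPC4 lies on chromosome X from 133300103 to 133415490 and GPC3 from 133535745 to 133985895, both on the minus strand with no protein-coding gene between them. The values were made on hg19, so that these positions are not those of the deposited files. The next protein-coding gene beyond GPC3 is CCDC160, at 2.87 FPKM in control, 1.70 FPKM with R-spondin2, 2.43 FPKM in clone 1 and 2.12 FPKM in clone 2. It was below control with R-spondin2, as GPC3 was, and also in both clones, where GPC3 was above control. No counting interval is given for CCDC160. TFDP3, on the other side, was not analysed here. GPC5 and GPC6 are neighbors on chromosome 13 as well, but GPC5 was too low for its changes to be read. Beside them, SLITRK5 was at 1.96, 0.89, 1.93 and 2.06 FPKM in the same order of libraries, and DCT was listed at 0 in each.

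GPC6 (NCBI gene 10082) was at 10.1 FPKM in control, 12.6 FPKM with R-spondin2, 6.98 FPKM in clone 1 and 9.82 FPKM in clone 2. Of the 5 glypicans above the detection level, it was the only one that was highest with R-spondin2, where its change was 0.29 (interval 0.16 to 0.47). In clone 1 the change was -0.48 (interval -0.73 to -0.35), whereas in clone 2 it was -0.04 with an interval of -0.21 to 0.12, so that no difference from control was detectable there. The clones thus differed more from each other (0.44, interval 0.31 to 0.68) than clone 2 did from control. By limma the mean change of -0.26 had an SE of 0.21 and an adjusted p of 0.578. The ratio of GPC3 to GPC6 went from 1.84 in control to 0.644 with R-spondin2, 6.09 in clone 1 and 3.22 in clone 2.

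GPC2 (NCBI gene 221914), a glypican known from developing neurons, was at 14.6 FPKM in control, 17.1 FPKM with R-spondin2, 22.4 FPKM in clone 1 and 21.5 FPKM in clone 2. The control library was the lowest and the 2 clones were the highest and nearly level. The changes in the clones were 0.58 and 0.53, with a mean of 0.56 ± 0.04 (SD, n = 2), an SE of 0.10 and an adjusted p of 0.0960 by limma. With R-spondin2 the change was 0.21, with an interval of 0.01 to 0.44 that barely left out 0. GPC2 therefore did not share the fall of GPC3 with R-spondin2, although both were higher in the clones.

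GPC1 (NCBI gene 2817), at 18.0, 18.3, 18.5 and 19.9 FPKM in control, R-spondin2, clone 1 and clone 2, varied least of the 9 members. Its range of 0.14 in log2(FPKM + 1) was smaller than that of 10827 of the 12697 genes. The intervals of its ratios to control were -0.15 to 0.18 for R-spondin2, -0.13 to 0.20 for clone 1 and -0.02 to 0.30 for clone 2. GPC5 was listed at 0.04 FPKM in 3 libraries and at 0 in clone 1. This is about 1 implied read per library, under the level of 3 reads (0.112 to 0.115 FPKM), and no fold is given.

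The proximal promoters of 3 glypicans are shown because these genes, unlike GPC1, differed from control in at least 1 clone beyond counting error, GPC2 and GPC4 upward and GPC6 downward. They were chosen after the values were seen. RefSeq windows on GRCh38.p14 were found for 8 of the 10 members, and not for GPC3 and SDC2. Each line gives the 250 bases before the annotated start, 5′ to 3′ on the strand of the gene, for GPC2 at chr7:100177382-100177631 (minus strand), GPC4 at chrX:133415490-133415739 (minus strand) and GPC6 at chr13:93226557-93226806 (plus strand). Capitals mark matches on either strand to 3 motifs. The GC box was searched as GGGCGG, and the TATA box was searched as TATAAA. The third motif, CTTTGA, is the core of a TCF/LEF site, the kind of site through which WNT signals act. No 2 of the matches overlapped.
GPC2: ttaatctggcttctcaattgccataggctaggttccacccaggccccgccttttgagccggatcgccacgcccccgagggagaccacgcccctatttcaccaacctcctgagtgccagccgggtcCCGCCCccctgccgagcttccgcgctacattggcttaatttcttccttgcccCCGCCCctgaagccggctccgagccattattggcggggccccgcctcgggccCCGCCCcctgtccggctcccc
GPC4: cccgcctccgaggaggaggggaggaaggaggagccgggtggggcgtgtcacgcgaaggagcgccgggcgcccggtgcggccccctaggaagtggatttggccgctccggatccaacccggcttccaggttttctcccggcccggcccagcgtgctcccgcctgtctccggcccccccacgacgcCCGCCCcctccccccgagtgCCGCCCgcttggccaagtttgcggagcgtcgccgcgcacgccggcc
GPC6: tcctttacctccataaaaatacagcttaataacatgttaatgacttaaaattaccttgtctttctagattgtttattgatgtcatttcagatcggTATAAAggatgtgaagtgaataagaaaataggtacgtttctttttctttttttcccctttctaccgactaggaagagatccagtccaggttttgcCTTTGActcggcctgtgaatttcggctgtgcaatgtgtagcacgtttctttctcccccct
The windows of GPC2 and GPC4 were rich in G and C, at 66.8% and 76.0%, against a median of 58.0% over 35116 promoter windows. They held 3 and 2 GC boxes and none of the other 2 motifs. That of GPC6 was at 37.6% G and C, with only 8.94% of all windows lower. It held 1 TCF/LEF core, no GC box and 1 match to TATAAA, which lay nearer the far end of the window than the annotated start. Over all windows, 42.6% held a GC box, 10.7% a TATA box and 11.2% a TCF/LEF core. A match describes letters at any place in this window and is not evidence of binding or of a working TATA box.

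The ranges of the syndecans were narrower than those of GPC2, GPC3, GPC4 and GPC6 but wider than that of GPC1. They exceeded the ranges of 54.2% (SDC1), 57.9% (SDC2), 27.7% (SDC3) and 50.3% (SDC4) of all genes compared. SDC4, found at the sites where cells adhere to matrix, was at 34.6 FPKM in control, 36.5 FPKM with R-spondin2, 31.5 FPKM in clone 1 and 29.4 FPKM in clone 2. Both clones were below the control library. The changes in the clones were -0.13 (interval -0.28 to 0.01) and -0.23 (interval -0.38 to -0.09), with a mean of -0.18 ± 0.07 (SD, n = 2) and an adjusted p of 0.407 by limma. SDC1, the main syndecan of epithelia, was at 27.3, 27.8, 34.4 and 33.7 FPKM in control, R-spondin2, clone 1 and clone 2. Here both clones were above the control library. The changes of SDC1 in the clones were 0.32 (interval 0.20 to 0.47) and 0.30 (interval 0.17 to 0.45), with an adjusted p of 0.173 by limma. SDC4 was therefore the highest syndecan in both wild type libraries and SDC1 in both clones. In each clone the counting intervals of the 2 genes overlapped. Such overlap does not show that the 2 genes were level, and their ratio was not tested. The intervals of SDC1 and SDC4 were 32.2 to 36.6 and 29.2 to 33.9 FPKM in clone 1. In clone 2 they were 31.6 to 35.9 and 27.2 to 31.7 FPKM.

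SDC2, a syndecan of mesenchymal cells, was at 12.6 FPKM in control, 13.9 FPKM with R-spondin2, 14.5 FPKM in clone 1 and 16.4 FPKM in clone 2. Its changes in the clones were 0.19 (interval 0.01 to 0.39) and 0.35 (interval 0.19 to 0.56). SDC3, the syndecan best known from the nervous system, was at 16.3, 15.9, 15.8 and 14.2 FPKM in the same order. At the 198 to 233 reads implied for SDC3, no difference from control was detectable in any of the 3 other libraries. With R-spondin2 the changes of the 4 syndecans ran from -0.03 (SDC3) to 0.12 (SDC2), and all 4 intervals held 0.

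Across the 9 members, the median change was 0.03 with R-spondin2, 0.19 in clone 1 and 0.30 in clone 2, beside medians of -0.008, 0.02 and 0.02 over all 12697 genes. In each of the 3 comparisons 6 members were above control and 3 below. Over all genes, 47.8% were above control with R-spondin2, 53.5% in clone 1 and 53.2% in clone 2. The interval of the ratio of implied reads left out 0 for 4 members with R-spondin2 (GPC2 and GPC6 higher, GPC3 and GPC4 lower). It left out 0 for 6 members in clone 1 (GPC2, GPC3, GPC4, SDC1 and SDC2 higher, GPC6 lower) and for 6 in clone 2 (the same 5 higher, SDC4 lower). Such intervals were common among all genes that allowed one. With R-spondin2, 8.99% of 12275 genes had an interval above 0 and 9.98% one below 0. In clone 1 these shares were 21.6% and 16.9% of 12262 genes, and in clone 2 17% and 13.5% of 12311 genes. Between the clones, where 1 member was higher and 2 were lower in clone 2, they were 9.76% and 10.1%. The members also held more reads than most genes, with a median of 592 implied reads in the control library against 252 over all genes in the R-spondin2 comparison, and more reads give narrower intervals. The counts are therefore given as a description, and the spread between cultures was not measured.

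**Figure D3:**
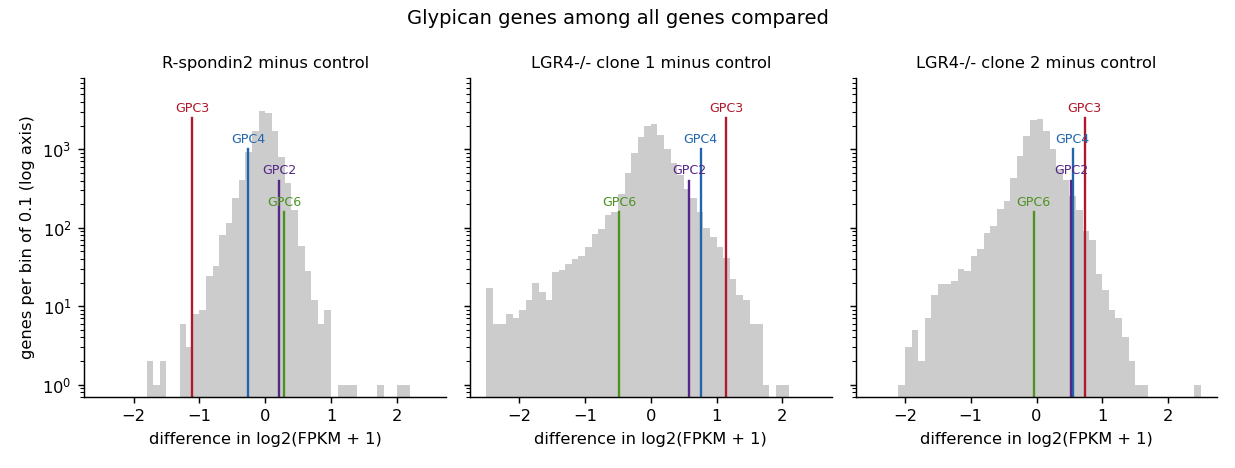
Number of genes (log axis) per bin of 0.1 in the difference in log2(FPKM + 1) for the 12697 genes compared, with changes beyond 2.5 in either direction put in the last bin, and lines at the 4 glypicans that moved most. GPC3 lies in the lower tail with R-spondin2 at -1.11 and in the upper tail in clone 1 at 1.15, where 83 genes rose further.

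The make-up of the glypican family followed GPC3 and GPC4. The summed FPKM of the 6 glypicans was 126 in control, 109.9 with R-spondin2, 199.7 in clone 1 and 177 in clone 2. GPC3 and GPC4 together held 66.0% of it in control, 56.4% with R-spondin2, 76.1% in clone 1 and 71.1% in clone 2. Without these 2 genes the sum was 42.8, 48.0, 47.8 and 51.3 FPKM in the same order. The summed FPKM of the 4 syndecans was 90.8, 94.0, 96.2 and 93.7, and the ratio of summed glypican to summed syndecan FPKM was 1.39 in control, 1.17 with R-spondin2, 2.08 in clone 1 and 1.89 in clone 2. The totals of the syndecans were thus nearly level while those of the glypicans were not.

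**Figure D4:**
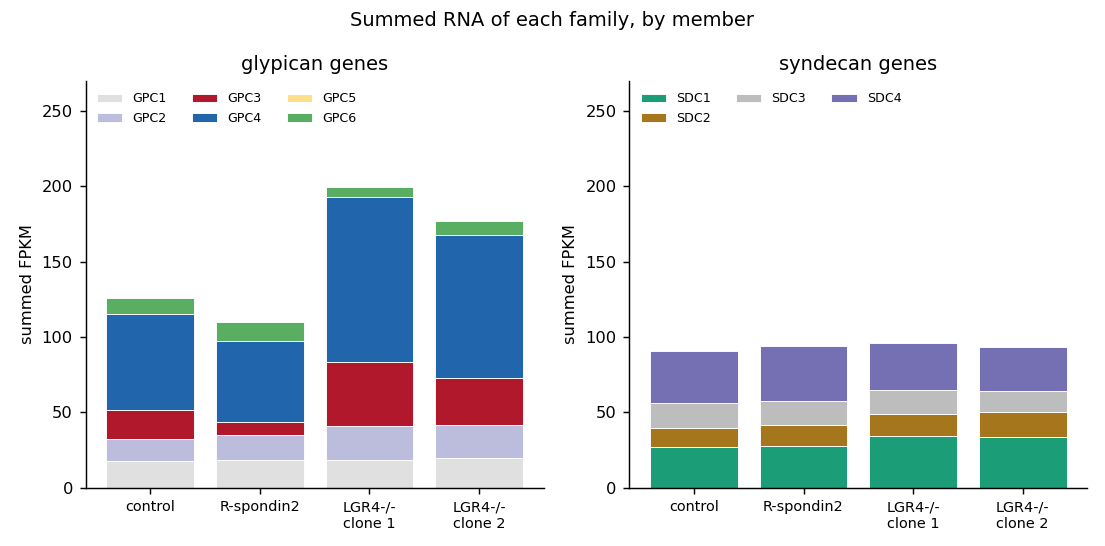
Summed FPKM of the 6 glypican genes (left) and the 4 syndecan genes (right) in each library, with 1 bar per library split by member. The glypican bars run from 109.9 (R-spondin2) to 199.7 (clone 1) and the syndecan bars from 90.8 to 96.2.

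In control the order of the glypicans was GPC4, GPC3, GPC1, GPC2, GPC6 and GPC5. The levels of GPC3 (interval 16.5 to 21.1 FPKM) and GPC1 (16.6 to 19.5 FPKM) did not differ beyond counting error. With R-spondin2, GPC3 came below GPC1, GPC2 and GPC6 and was the fifth. In both clones it was again the second, and the ranges of GPC4, GPC3, GPC2, GPC1 and GPC6 over the 2 clones did not overlap. Each range rests on 1 value per clone. In clone 2 the counting intervals of GPC2 (19.6 to 23.5 FPKM) and GPC1 (18.4 to 21.5 FPKM) overlapped, so their order there is not settled. Of the syndecans, SDC2 and SDC3 overlapped over the clones, at 14.5 to 16.4 FPKM and 14.2 to 15.8 FPKM.

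Among 9028 other genes averaging 5 FPKM or more, the 3 whose changes with R-spondin2, in clone 1 and in clone 2 lay nearest to those of GPC3 were PRR36, PTPRZ1 and APELA. The Euclidean distances over these 3 changes were 0.171, 0.216 and 0.235 in log2 units. PTPRZ1, a receptor phosphatase that itself carries chondroitin sulfate, was at 19.0 FPKM in control, 9.49 FPKM with R-spondin2, 42.4 FPKM in clone 1 and 34.8 FPKM in clone 2. APELA, which encodes a ligand of the apelin receptor, was at 4.84, 1.71, 11.9 and 7.23 FPKM, and PRR36 at 5.51, 2.19, 12.0 and 9.57 FPKM. With 3 changes that share 1 control library, the likeness is a description of these 4 libraries.

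Markers of cell state moved in the same libraries. The 7 pluripotent cell markers (POU5F1, NANOG, SOX2, LIN28A, DPPA4, DNMT3B and TDGF1) summed to 1543 FPKM in control, 1244 with R-spondin2, 2531 in clone 1 and 2326 in clone 2. Of the 7, 6 were lower than control with R-spondin2, SOX2 by more than 2-fold and with TDGF1 the exception, and all 7 were higher than control in both clones. The 8 mesoderm markers (T, MIXL1, EOMES, MESP1, HAND1, TBX6, APLNR and KDR) summed to 1096, 1429, 388 and 604 FPKM, with 7 of 8 higher with R-spondin2 and all 8 lower in both clones. GPC3 and GPC4 had the order of libraries of the pluripotent sum, and GPC6 that of the mesoderm sum. The part of cell state in these levels was not tested. The 7 stromal fibroblast markers summed to 162 FPKM (clone 1) to 261 FPKM (R-spondin2), mostly from COL1A1 and COL1A2, while DCN and POSTN were at or below 0.39 FPKM throughout. The 5 endoderm markers summed to 38.7 FPKM (clone 1) to 65.5 FPKM (R-spondin2), mostly from SOX17. The 5 neuroectoderm markers summed to between 2.04 and 2.47 FPKM, with SOX1 listed at 0 in control and with R-spondin2, and the 4 endothelial and blood markers to between 4.08 and 4.58 FPKM, with CDH5 at or below 0.05 FPKM.

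A further 80 genes were listed by their role around heparan sulfate and its core proteins, and 66 of them averaged 1 FPKM or more. With R-spondin2 0 of the 66 changed 2-fold, where over all genes 0.0473% rose and 0.173% fell. In both clones 4 of the 66 fell 2-fold and 0 rose, beside 1.08% and 0.236% of all genes. Of the 15 tested genes that build the chain, 0 changed 2-fold in any comparison with control. Their median changes were 0.06 with R-spondin2, -0.03 in clone 1 and -0.04 in clone 2. The polymerase genes EXT1 and EXT2, which extend the chain together, were at 16.7 and 19.1 FPKM in control, 20.3 and 18.8 FPKM with R-spondin2, 13.3 and 18.9 FPKM in clone 1, and 15.0 and 17.2 FPKM in clone 2. XYLT2, which adds the first sugar of the chain, had the largest change in the clones, at 9.01 FPKM in control and 7.70, 16.2 and 13.4 FPKM in R-spondin2, clone 1 and clone 2, and EXT1 had the largest with R-spondin2 (0.27).

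Of the 14 tested genes that modify the chain, 2 fell 2-fold in both clones, as did 137 (1.08%) of all genes. The median change of the 14 was 0.23 with R-spondin2, -0.33 in clone 1 and -0.23 in clone 2, with 10 of 14 above control with R-spondin2 and 9 of 14 below it in each clone. Over all genes, 47.8% were above control with R-spondin2, 53.5% in clone 1 and 53.2% in clone 2. HS3ST1, a 3-O-sulfotransferase that adds a rare sulfate to the chain, was at 10.7 FPKM in control, 13.9 FPKM with R-spondin2, 1.42 FPKM in clone 1 and 4.45 FPKM in clone 2. HS3ST3A1, of the same enzyme family, was at 14.9, 17.9, 3.97 and 5.23 FPKM. Both were highest with R-spondin2 and fell in both clones, by 2.27 and 1.10 on the log2 scale for HS3ST1 and by 1.68 and 1.36 for HS3ST3A1. Their adjusted p-values by limma were 0.161 and 0.0755, the latter shared with other genes, 71 in all, as the lowest value reached. Other members of this list had smaller differences. SULF2, which removes sulfate from the chain outside the cell, was at 28.1, 35.7, 14.3 and 20.1 FPKM, and HS6ST1, a 6-O-sulfotransferase, at 52.4, 57.5, 31.2 and 34.9 FPKM. HS6ST2, of the same family, was at 1.91, 2.37, 2.71 and 2.27 FPKM.

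**Figure D5:**
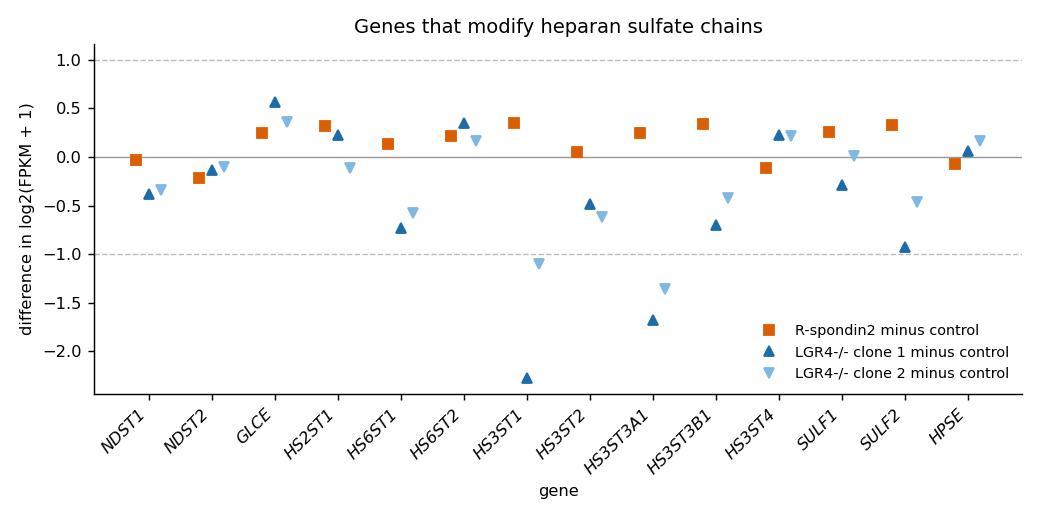
Difference from control in log2(FPKM + 1) for the 14 tested genes that modify heparan sulfate, 1 point per comparison, with dashed lines at a 2-fold change. HS3ST1 and HS3ST3A1 lie below -1 in both clones and above 0 with R-spondin2.

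Among the 15 tested genes that process, shed or release the core proteins, 0 changed 2-fold in both clones or with R-spondin2. NOTUM and MMP2 fell 2-fold in clone 1, as did 287 (2.26%) of all genes. NOTUM, which cuts the lipid of secreted WNT proteins and was first described as releasing glypicans, was at 4.69 FPKM in control, 4.92 FPKM with R-spondin2, 1.76 FPKM in clone 1 and 2.48 FPKM in clone 2. MMP14, a membrane protease that can shed syndecans, was at 98.5, 126.7, 51.4 and 61.7 FPKM. FURIN, a convertase that cleaves GPC3 and other precursors, was at 22.5, 23.7, 16.4 and 17.8 FPKM. TIMP3, an inhibitor of shedding enzymes, had the largest change with R-spondin2 (0.59). The 8 tested partners of the syndecan tail held 0 genes changed 2-fold. SDCBP, which encodes syntenin, the main binding partner, was at 50.9, 58.2, 41.6 and 47.1 FPKM and had the largest change with R-spondin2 (0.19), and SDCBP2 had the largest in the clones (0.59 and 0.60) at 1.72 FPKM or less.

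Other proteoglycans showed both patterns. NRP1, a co-receptor for VEGF and semaphorins that can carry a sugar chain, was at 15.1 FPKM in control, 20.1 FPKM with R-spondin2, 2.11 FPKM in clone 1 and 4.95 FPKM in clone 2. It fell by 2.37 and 1.44 in the clones. It was the only one of the 7 tested genes of its list to change 2-fold in both clones. The basement membrane proteoglycans HSPG2 and COL18A1 were at 19.4 and 125.4 FPKM in control, and their changes ran from -0.003 to 0.27. AGRN, of the same list, was at 52.8 FPKM in control. Its changes were wider, at -0.23 with R-spondin2, 0.42 in clone 1 and 0.17 in clone 2. Among the 7 tested chondroitin and dermatan sulfate proteoglycans, LUM fell in both clones, from 5.49 FPKM in control to 0.16 and 1.45 FPKM, and was at 9.11 FPKM with R-spondin2. LUM also stands in the stromal marker list. VCAN, a large matrix proteoglycan, was at 66.4, 53.2, 89.1 and 88.9 FPKM. Like GPC3 and GPC4, it was lowest with R-spondin2 and above control in both clones, but its level in the 2 clones was nearly the same.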

How the data were processed

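RNA-SEQ of 4 libraries was analyzed, 1 control, 1 R-spondin2 and 2 LGR4-/- clones. The authors deposited FPKM per gene, given to 2 decimals without read counts, for 17894 genes with NCBI gene identifiers and RefSeq transcripts. The submitters' processing notes name BWA, Bowtie, RSEM and hg19, and the role of each tool, the filters and the use of strand are not given in the sources used here. Reads of GPC5 and GPC6 and of their antisense genes can therefore not be told apart.

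Groups were taken from the sample titles. Differences were computed as log2(FPKM + 1), as in the study's heatmap apart from the base, for the 12697 genes averaging 1 FPKM or more, and a gene was called at a 2-fold difference. On this scale the change of low genes is understated. For LGR4-/- against control, a call needed both clones. No test was made between single libraries. As an alternative, limma 3.58.1 (R 4.3.3, trend) was fitted on all 4 libraries with Benjamini-Hochberg adjustment. Its spread rests on 1 residual degree of freedom, and the control is assumed to vary like the clones. Depth was sought as the total that brought low FPKM (below 0.6, transcripts under 1500 bases, lengths from GENCODE release 29) nearest to whole reads, and 77.2% to 78.5% of those values then lay within 0.2 of one. Implied reads rest on these lengths, and SDC3 was matched to a transcript of 1580 bases only. For GPC3 and SDC1 the shortest listed transcript was used, which gives the widest interval. Python 3.11.15, pandas 2.3.3, numpy 2.4.6, scipy 1.17.1 and, for plots, matplotlib 3.10.9 served for the rest.

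The members and gene lists were chosen with earlier results of these data known. Named genes were all 10 members, LGR4, every listed gene called in either comparison with control, the gene of largest change in a list, the 3 genes nearest to the member of widest range, and the neighbors of GPC3, GPC4, GPC5 and GPC6. Further genes named from the lists and the promoters were chosen after their values were seen. MMP7 and HS3ST6 were not analysed here. Alternatives were other pseudocounts, filters, scaling and thresholds, and each clone left out.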

Additional observations from a re-analysis of the deposited data

How the results depend on the processing

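All 135 values for the change of a member kept their direction under the alternatives tried, and 129 of them stayed within 1 SD of the clones or within counting error. The remaining 6 were changes of the clones against the R-spondin2 library in place of the control library. That alternative was chosen after seeing the data, and under it GPC3 was at 2.05. Many of the 129 values could not have left these limits. A filter cannot alter the change of a member it keeps, so values without a filter and at 5 FPKM or more repeat those reported. Leaving out a clone always moves the mean of the clones by less than their SD, so only the direction was open there. Agreement in size under these settings is therefore no evidence of stability. With R-spondin2, GPC3 stayed the 1 member changed under each setting. In LGR4-/- against control, 1 member, GPC3, was changed at 1.5-fold and against the R-spondin2 library. Without clone 1 the count was 0 members, and without clone 2 it was 1, GPC3, with mean changes of 0.73 to 1.15 for GPC3.

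Counts over all genes depended on the setting. With R-spondin2, 6 genes rose and 22 fell. A pseudocount of 0.1 gave 32 and 107, a mean of at least 5 FPKM gave 0 and 14, 1.5-fold gave 68 and 186, and no filter gave 12 rises. For LGR4-/- against control, 30 rose and 137 fell. A pseudocount of 0.1 gave 115 and 230, 1.5-fold gave 332 and 392, the R-spondin2 library as control gave 212 and 230, and at least 5 FPKM gave 18 rises. limma gave 0 and 0 at an adjusted p of 0.05, with 2332 genes at an unadjusted p under 0.05. With 1 clone left out the rises ran from 42 to 160 and the falls from 149 to 287, the larger without clone 2. Clone 2 against clone 1 had 22 genes higher and 10 lower, which became 92 and 49 with a pseudocount of 0.1, 10 and 2 at 5 FPKM or more, and 171 and 135 at 1.5-fold. The cause of these shifts was not tested. Rescaling moved the median of all genes by at most 0.018 (log2) and no call of a member. No paired analysis was possible because the groups compared share fewer than 2 replicate numbers. At 8850000 to 9040000 estimated reads, GPC5 could not be measured.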
